A study of Mus musculus with 12 samples.

Results

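The miR-130 and miR-301 family is a group of mature microRNAs that carry one seed, the stretch of bases 2 to 8 that pairs with target mRNAs, and that come from several loci. Its 4 members on the array, mmu-miR-130a, mmu-miR-130b, mmu-miR-301a and mmu-miR-301b, were chosen by their names in the scanner tables, out of 650 microRNAs on the array (611 of them mouse). All 4 were among the 176 mouse microRNAs that were tested. The family was put forward with earlier results on these arrays known, so the values and adjusted p-values of its members are a description and no independent support. Total RNA of C57BL/6 mouse embryonic fibroblasts, connective tissue cells that make extracellular matrix, was hybridised to 12 one-colour Agilent microRNA arrays in 6 groups of 2. The groups were ATF6b knockout (KO) fibroblasts left untreated or given tunicamycin at 2 ug/mL for 12 h or 24 h, and wild-type (WT) fibroblasts left untreated or given the same dose for 12 h or 24 h. The labels tie the 2 arrays of a group to independent experiments and do not say how many embryos or cell isolates stand behind a genotype. ATF6b mRNA is not measured by a microRNA array, so the genotype could not be checked here.

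ATF6b is a membrane-bound transcription factor of the endoplasmic reticulum and a close relative of ATF6a. Both are cut and released to the nucleus when unfolded proteins build up. Tunicamycin blocks N-linked glycosylation and is a standard way to cause that stress. MicroRNAs guide Argonaute proteins to mRNAs, mostly through the seed, so members of one family can share targets whatever locus they come from. The miR-130 and miR-301 family is known for repressing Pparg, the master regulator of fat cell formation, and for its part in matrix remodelling and fibrosis, both of which involve fibroblasts.

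The mature sequences are shown because one shared seed, with different 3′ ends, is what defines the family and decides what the array probes can tell apart. They are taken from RefSeq (GRCm38.p6), written 5′ to 3′, with the seed in capitals. Array names carry no arm, so the arm with the family seed was taken, and 3 of the 4 members matched an entry.
mmu-miR-130a: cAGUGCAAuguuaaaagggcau
mmu-miR-130b: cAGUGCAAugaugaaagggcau
mmu-miR-301a: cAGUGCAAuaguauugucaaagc
mmu-miR-301b is named only. In GRCm38.p6, the mature miR-130a lies on the minus strand at chr2:84741116-84741137, miR-130b on the minus strand at chr16:17124071-17124092 and miR-301a on the plus strand at chr11:87113054-87113076. Counted from 1 at the 5′ end, miR-130a and miR-130b are identical at 20 of 22 positions, and miR-130b differs from miR-130a by U11A and A13G. miR-301a shares the first 9 bases with both and is identical to miR-130a at 12 of 22 positions. In the RefSeq annotation, Mir130b and Mir301b are neighbours on chromosome 16, with 257 bases between their hairpins, inside the span of 2610318N02Rik. Mir301, the gene of miR-301a, lies within the span of Ska2, a kinetochore component gene, and Mir130a lies in no other gene's span. The seed AGUGCAA occurs in 7 of 1738 mature mouse entries in RefSeq, of which 4 are on the array: the 3 members above and miR-721. No entry was matched to miR-301b, so this count does not cover it and says nothing about its seed.

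On the 12 arrays, miR-130a, miR-130b and miR-301a were detected everywhere, and miR-301b on 5 arrays. Levels are given as log2 of the summed probe intensity divided by the array's own 75th percentile over the 93 microRNAs detected on all 12 arrays, so 0 means a level at that percentile. The lowest value allowed is a floor of -5.71. Differences are on the same log2 scale, first-named group minus the second, from one limma fit over all 12 arrays with Benjamini-Hochberg adjustment over the 176 microRNAs; a member with an adjusted p under 0.05 is described as called. The 75th percentile was 208 to 623 intensity units and the software detected 114 to 191 microRNAs per array. On 3 arrays, replicate 2 of KO at 12 h, of KO at 24 h and of WT at 24 h, the percentile was only 246, 208 and 257 units, against 412 to 623 on the other 9. The untreated arrays shared one slide and the treated arrays another, so treatment and slide cannot be told apart. KO and WT arrays lay in different positions on each slide, so genotype and position cannot be told apart either. Arrays of the same run deviated together while the fit treats arrays as independent, so its p-values can be too small or too large. Fibroblast microRNA markers were detected at 7 to 9 of 10 on each array, and blood, endothelial, neural and liver markers at none.

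The 1 member called with tunicamycin was miR-130b, whose gene lies next to that of miR-301b and which is known to repress Pparg in fat cell precursors. In KO cells its log2 level was -3.83 and -3.56 untreated, -2.62 and -2.54 at 12 h, and -2.49 and -2.77 at 24 h. In WT cells it was -3.73 and -3.72 untreated, -3.13 and -3.15 at 12 h, and -3.17 and -3.42 at 24 h. All 8 treated arrays lay above all 4 untreated ones, and the 4 treated KO arrays lay above the 4 treated WT arrays. How many of all tested microRNAs separated likewise was not counted, for this or any other member.

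In KO cells miR-130b rose by 1.12 ± 0.15 (log2, SE, n = 2 each) at 12 h relative to untreated cells, a 2.17-fold difference (limma adjusted p = 0.000884). At 24 h it was higher by 1.07 ± 0.15, or 2.10-fold (limma adjusted p = 0.00124). In WT cells it rose by 0.59 ± 0.15 at 12 h (limma adjusted p = 0.018). That call was lost when any 1 of the 4 WT arrays in it was left out, with the difference between 0.58 and 0.60. At 24 h in WT cells the difference was 0.43 ± 0.15, which missed the threshold (limma adjusted p = 0.0504, and 0.044 with the replicate number as a block, though equal numbers on different slides did not deviate together). The same comparisons over all 176 tested microRNAs had medians of 0.25 and 0.15 in KO cells and of -0.05 and -0.03 in WT cells.

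The number of family members called was 1 of 4, miR-130b, in KO cells at 12 h, where 25.6% of all tested microRNAs were called. It was 1 of 4 in KO cells at 24 h, against 30.7% of all tested, and 1 of 4 in WT cells at 12 h, against 38.1%. In WT cells at 24 h none of the 4 was called with limma, against 43.2%. There 1, miR-130b, had an unadjusted p under 0.05, beside 85 of all 176 tested. Between 24 h and 12 h of tunicamycin 0 members were called with limma in KO cells, where 0.568% of all tested were, and 0 in WT cells, where 1.14% were. Members with an unadjusted p under 0.05 numbered 0 in KO cells, beside 16 of all 176 tested. In WT cells there was 1, miR-301a, beside 12 of 176. The 24 h minus 12 h difference of miR-130b was -0.05 in KO cells and -0.16 in WT cells.

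**Figure D1:**
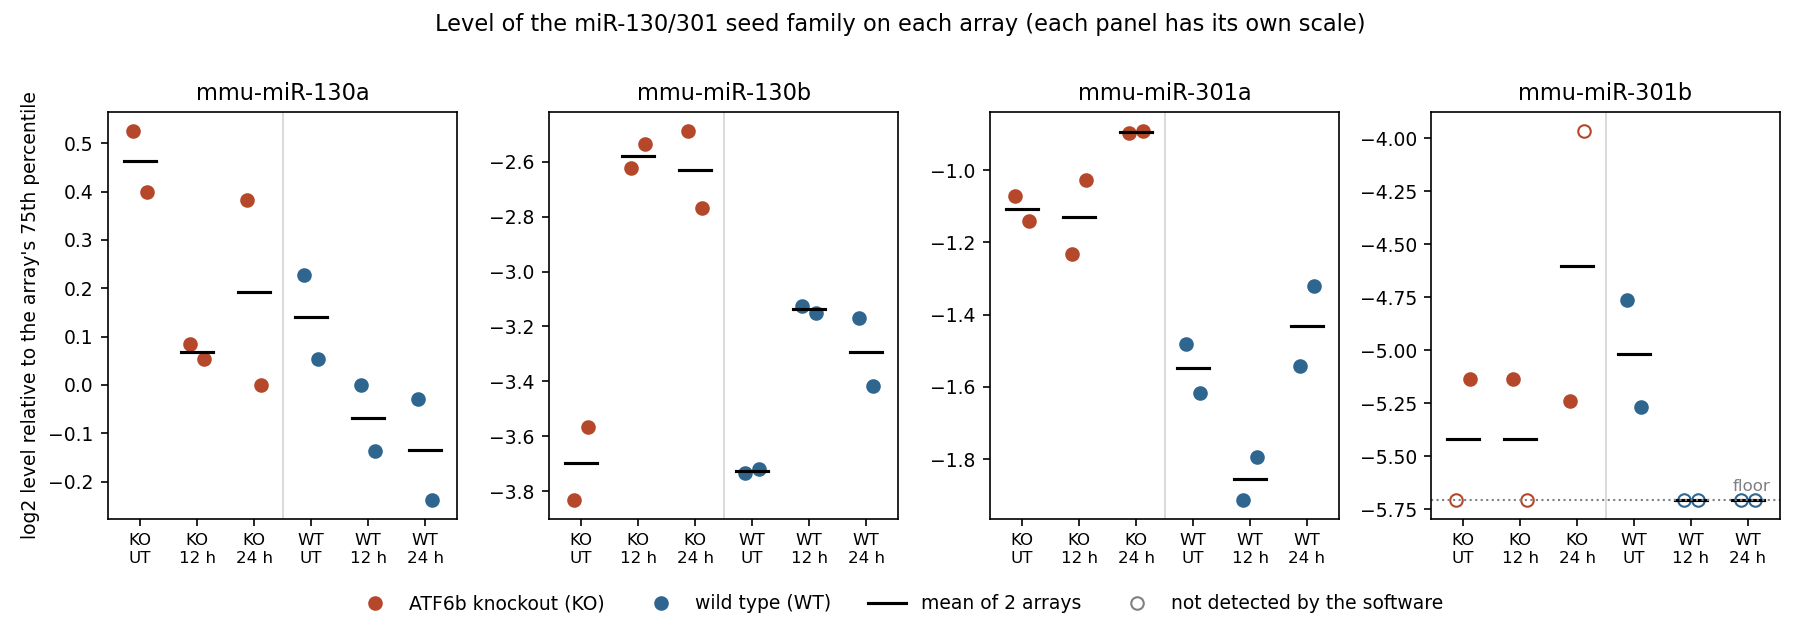
Log2 level of each member on each array, relative to the array's 75th percentile, by genotype and time (UT, untreated); points are arrays, bars are means of 2, and open points were not detected. miR-130b lies between -3.83 and -3.56 on the 4 untreated arrays and between -3.42 and -2.49 on the 8 treated ones, while miR-301b is at the floor of -5.71 on all 4 treated WT arrays.

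miR-130a, whose sequence differs from that of miR-130b at only 2 positions, showed another pattern of levels. In KO cells its log2 level was 0.53 and 0.40 untreated, 0.08 and 0.05 at 12 h, and 0.38 and 0.00 at 24 h. In WT cells it was 0.23 and 0.05 untreated, 0.00 and -0.14 at 12 h, and -0.03 and -0.24 at 24 h. In both genotypes the treated arrays lay below the untreated ones at both times, and the share of all tested microRNAs that did so was not counted.

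None of these differences was called. In KO cells miR-130a was at -0.39 ± 0.16 at 12 h relative to untreated cells (limma adjusted p = 0.12, unadjusted 95% interval -0.76 to -0.02) and at -0.27 ± 0.16 at 24 h (limma adjusted p = 0.265). The 12 h difference in KO cells passed the threshold with the replicate number as a block (limma adjusted p = 0.0266), which again pairs arrays of different slides. After quantile normalization miR-130a was called lower in KO cells at both times, at -0.63 (limma adjusted p = 0.0168) and -0.65 (limma adjusted p = 0.0164), and miR-130b was not called. In WT cells the differences were -0.21 ± 0.16 and -0.27 ± 0.16 (limma adjusted p = 0.308 and 0.194). miR-130a was itself the 75th percentile of the 93 microRNAs on 2 arrays, replicate 1 of WT at 12 h and replicate 2 of KO at 24 h, where its level is 0.00 by construction. With the members left out of the percentile, the 12 h difference of miR-130b in KO cells was 1.12.

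The contrast between these near-identical members does not depend on the scaling between arrays when it is read as a ratio within an array. Its size also carries the brightness of the probes, so only its change between arrays is read. The ratio does not remove an error in the background, near which miR-130b lies, and does not show which member changed. Before scaling, the mean intensity of miR-130b in KO cells was 47.2 untreated, 57.4 at 12 h and 52.0 at 24 h. That of miR-130a was 844, 364 and 373. In WT cells these were 41.8, 62.2 and 44.3 for miR-130b, and 612, 525 and 394 for miR-130a. The arrays of low signal are among the treated ones. The intensity of miR-130b in percent of that of miR-130a was 4.88 and 6.40 in untreated KO cells, 15.3 and 16.6 at 12 h, and 13.7 and 14.7 at 24 h. In WT cells it was 6.43 and 7.32 untreated, 11.5 and 12.4 at 12 h, and 11.3 and 11.0 at 24 h. The 8 treated arrays lay between 11.0% and 16.6% and the 4 untreated arrays between 4.88% and 7.32%, with no overlap. In log2, the ratio was higher in treated than in untreated KO cells by 1.51 at 12 h and 1.34 at 24 h, and higher in treated than in untreated WT cells by 0.80 and 0.71. It was lower in KO than in WT cells without tunicamycin, by a log2 difference of -0.30, and higher in KO than in WT cells by 0.42 at 12 h and 0.34 at 24 h, each without overlap of the 2 arrays a group. These ratios were not tested.

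miR-130b has 2 probes. The brighter probe was higher by 1.00 at 12 h and 1.07 at 24 h than in untreated KO cells. In WT cells the brighter probe was higher by 0.60 and 0.54 at 12 h and 24 h, with no overlap. The dimmer probe had a mean of 10.8 intensity units against 40.1 for the brighter. It lay under 3 times its error on 6 of 12 arrays, so its differences are uncertain, though it is part of the summed level used here. With tunicamycin they were 1.61 and 1.02 in KO cells at 12 h and 24 h. In WT cells they were 0.55 and -0.06, the last with overlapping arrays. Between untreated KO and WT cells the dimmer probe gave -0.45, with overlap, where the brighter gave 0.14. Under tunicamycin it was higher in KO than in WT cells by 0.62 at both times, where the brighter gave 0.54 and 0.68.

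**Figure D2:**
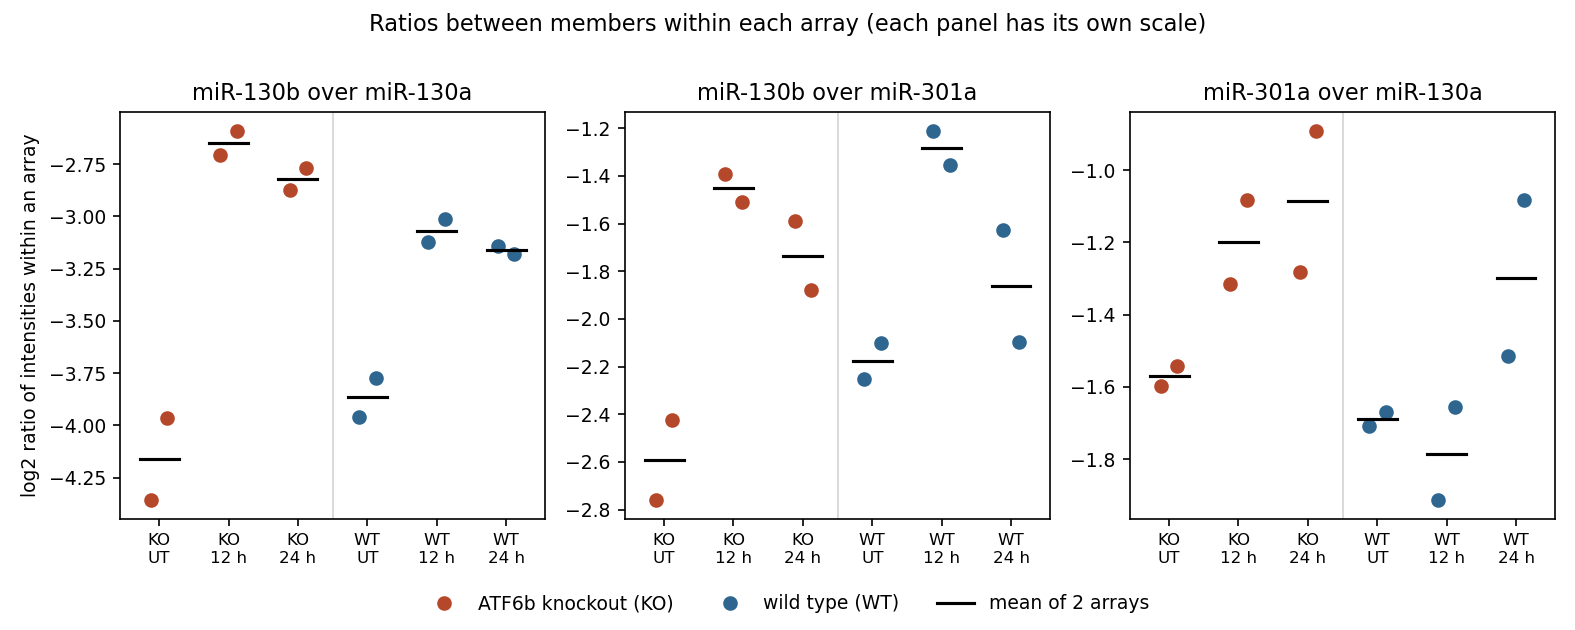
Log2 ratio of the intensities of pairs of members within each array, by genotype and time (UT, untreated); points are arrays and bars are means of 2. For miR-130b over miR-130a the 8 treated arrays lie between -3.18 and -2.59 and the 4 untreated arrays between -4.36 and -3.77.

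miR-301a, which is made from within Ska2 and shares the first 9 bases with miR-130a and miR-130b, lay at a higher level in KO than in WT cells with and without tunicamycin. In KO cells its log2 level was -1.07 and -1.14 untreated, -1.23 and -1.03 at 12 h, and -0.90 and -0.89 at 24 h. In WT cells it was -1.48 and -1.62 untreated, -1.91 and -1.79 at 12 h, and -1.54 and -1.32 at 24 h. All 6 KO arrays lay above all 6 WT arrays. The share of all tested microRNAs that separated in this way was not counted. Under tunicamycin 38.1% of all tested were called between genotypes at 12 h and 34.7% at 24 h.

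miR-301a was higher in KO than in WT cells by 0.72 ± 0.13 at 12 h, or 1.65-fold (limma adjusted p = 0.00384), and by 0.54 ± 0.13 at 24 h, or 1.45-fold (limma adjusted p = 0.0134). The call at 24 h was lost without replicate 1 of WT at 24 h, with a difference of 0.43. It was also lost with only the groups of the comparison in the fit (limma adjusted p = 0.102). With the brightest probe of each microRNA alone, scaled on these probes, neither call held. The differences were then 0.41 at 12 h and 0.31 at 24 h (limma adjusted p = 0.124 and 0.299). In untreated cells the difference was 0.44 ± 0.13, which missed the threshold (limma adjusted p = 0.0652, and 0.0341 when runs were blocked). With tunicamycin against untreated cells, no difference of miR-301a was called. In KO cells these were -0.02 ± 0.13 at 12 h (limma adjusted p = 0.939) and 0.21 ± 0.13 at 24 h (limma adjusted p = 0.284). In WT cells they were -0.31 ± 0.13 (limma adjusted p = 0.105) and 0.12 ± 0.13 (limma adjusted p = 0.489). In WT cells miR-301a was higher at 24 h than at 12 h by 0.42 ± 0.13, without overlap of the arrays and not called (limma adjusted p = 0.274).

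Between genotypes, miR-130b and miR-301a were the 2 members called. Under tunicamycin miR-130b was higher in KO than in WT cells by 0.56 ± 0.15 at 12 h, or 1.47-fold (limma adjusted p = 0.0217), and by 0.66 ± 0.15 at 24 h, or 1.58-fold (limma adjusted p = 0.0115). The 12 h call was lost when any 1 of its 4 arrays was left out, with the lowest difference, 0.51, without replicate 2 of KO at 12 h. The 24 h call was lost without replicate 1 of KO at 24 h (0.52) or replicate 2 of WT at 24 h (0.54). In untreated cells its difference between genotypes was 0.03, with a 95% interval of -0.32 to 0.38. miR-130a was higher in KO cells by 0.32 ± 0.16 untreated, 0.14 ± 0.16 at 12 h and 0.33 ± 0.16 at 24 h, none of them called (limma adjusted p = 0.29, 0.529 and 0.159). Its 24 h difference passed the threshold with the replicate number as a block (limma adjusted p = 0.0413) and did not with the run as a block (limma adjusted p = 0.068), and a replicate number stands for a run only within a slide.

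In all, 0 of 4 members were called between genotypes without tunicamycin, where 11.4% of all tested microRNAs were, with limma. There 1 member had an unadjusted p under 0.05, beside 40 of all 176 tested. At 12 h 2 of 4 were called, against 38.1% of all tested, and at 24 h 2 of 4, against 34.7%. The median over all 176 microRNAs was itself higher in KO than in WT cells at 12 h by 0.23 and at 24 h by 0.25, so the members' differences of 0.54 to 0.72 stand beside a general shift of that size. The size of this shift depends on the scaling: it was -0.00043 at 12 h after quantile normalization and -0.14 when the percentile was taken over all microRNAs. In those settings neither miR-130b nor miR-301a was called between genotypes.

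The tunicamycin response of miR-130b was larger in KO than in WT cells by 0.53 ± 0.21 at 12 h and by 0.64 ± 0.21 at 24 h. Neither difference of responses passed the threshold (limma adjusted p = 0.113 and 0.0789). The 24 h difference passed it when runs were blocked (limma adjusted p = 0.0442) and, at 0.78, without replicate 2 of KO at 24 h. The response of miR-301a differed by 0.28 ± 0.18 and 0.10 ± 0.18, and that of miR-130a by -0.18 ± 0.22 and 0.00 ± 0.22. At 12 h 0 of 4 members were called with limma for a different response, against 24.4% of all tested, and at 24 h 0 of 4, against 20.5%. At an unadjusted p under 0.05 there were 1, miR-130b, at 12 h and 2, miR-130b and miR-301b, at 24 h. Of all 176 tested, 64 passed that unadjusted limit at each time. The medians of these response differences over all tested microRNAs were 0.37 and 0.44.

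**Figure D3:**
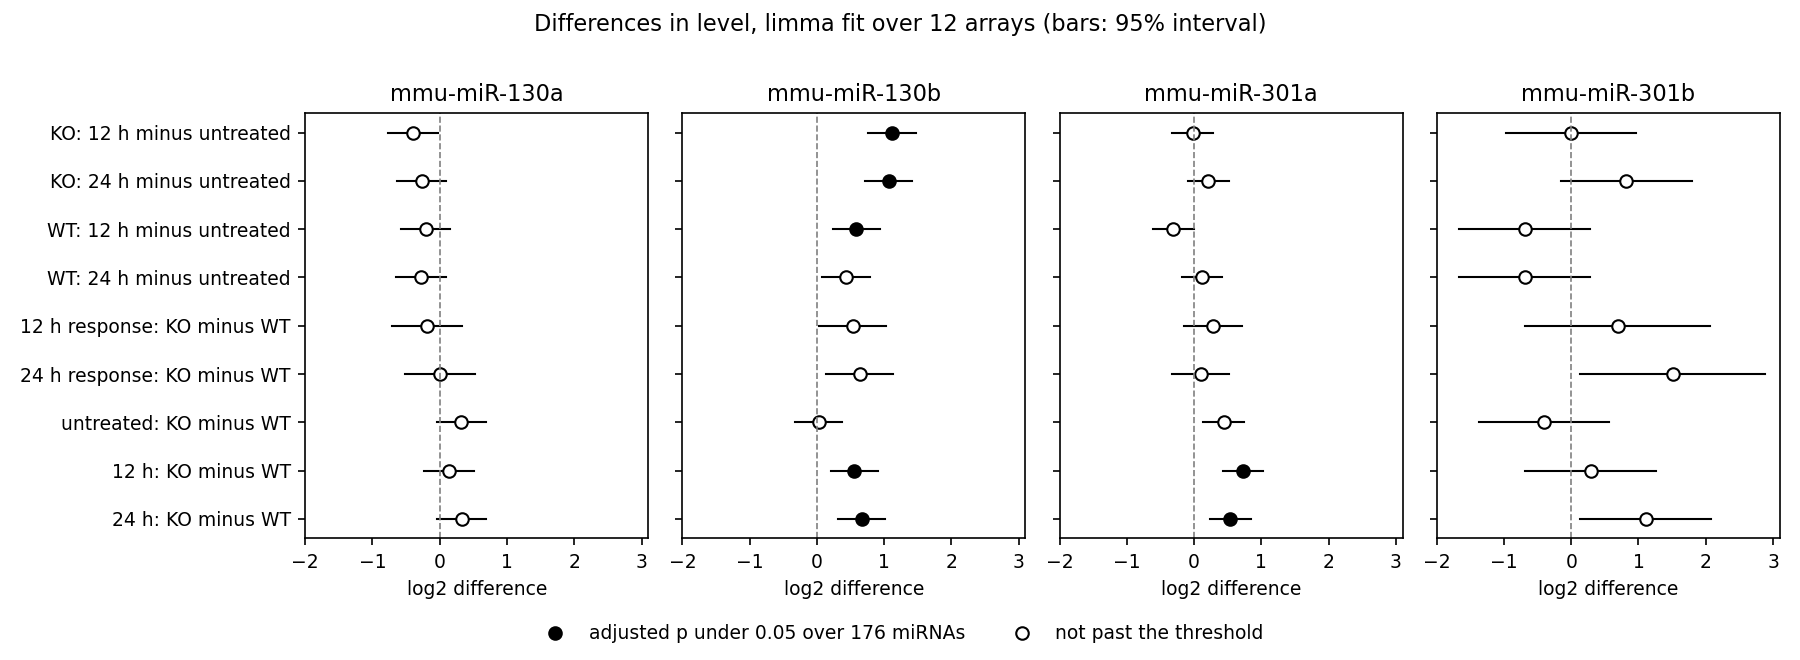
Log2 differences of each member in 9 comparisons from the limma fit over 12 arrays, with bars for the 95% interval; filled points have an adjusted p under 0.05 over the 176 microRNAs tested. Filled points stand for miR-130b in KO cells at both times and in WT cells at 12 h, and for miR-130b and miR-301a between genotypes at 12 h and 24 h.

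miR-301b, the genomic neighbour of miR-130b, was close to the limit of detection. It was detected on both arrays of untreated WT cells, which is the one group through which it entered the test, and on 1 array each of untreated KO cells, KO cells at 12 h and KO cells at 24 h. It was detected on none of the 4 treated WT arrays. Its log2 level in KO cells was -5.71 and -5.13 untreated, -5.13 and -5.71 at 12 h, and -5.24 and -3.96 at 24 h. In WT cells it was -4.76 and -5.27 untreated and at the floor of -5.71 on all treated arrays. The highest value, replicate 2 of KO at 24 h, was on an array of low signal where the software did not detect it, at 13.3 intensity units.

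Where a group had no detected array, only a bound can be given, the mean of the brighter group against the lowest detected signal of the dimmer group's arrays or the member's own signal, whichever was higher. miR-301b was at least 1.22-fold lower in WT cells at 12 h than in untreated WT cells. For WT at 24 h no bound is given, against untreated WT or against KO, since detected arrays lay below its bound of -5.11. These were replicate 2 of untreated WT cells, at -5.27, and the 1 detected array of KO at 24 h, at -5.24. None of the differences of miR-301b was called (limma adjusted p = 0.219 in WT cells at 12 h, 0.211 at 24 h, and 0.0801 for KO against WT at 24 h). Without replicate 1 of KO at 24 h, which leaves the undetected array alone in its group, that last comparison passed the threshold at 1.74, as did KO at 24 h against untreated KO at 1.46. With a lower floor its differences in WT cells were called, at -1.69 at both times (limma adjusted p = 0.0344 at 12 h and 0.0295 at 24 h), and so was KO against WT at 24 h, at 2.11 (limma adjusted p = 0.0145), so these fitted values depend on the floor. Because miR-301b entered the test only through untreated WT cells, the filter favoured a fall from that group. The bound and the p-values of comparisons that involve untreated WT cells are therefore no support for a fall.

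The array also carries the opposite strand of the miR-130b hairpin, miR-130b*, and miR-721, a microRNA with the family seed. miR-721 is shown because its seed is the same:
mmu-miR-721: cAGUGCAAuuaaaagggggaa
miR-130b* was detected on 1 array, replicate 1 of untreated KO cells, and miR-721 on 1 array of KO at 24 h and 1 of WT at 24 h, too few for the test. No saturated spot was found for any member (0 spots).

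The total that the extraction software gives for a microRNA, whose log2 the authors deposited as their table of values, did not measure miR-130b alone on every array. On 6 of 12 arrays the total of miR-130b equalled the sum of its own detected probes plus the total of miR-130a, the entry listed just before it, to within 0.0008 intensity units. These were replicate 1 of untreated KO, replicate 2 of KO at 12 h and at 24 h, replicate 1 of untreated WT, and replicate 2 of WT at 12 h and at 24 h. They were exactly the arrays on which the first-listed probe of miR-130b lay under 3 times its error. In untreated WT cells, for instance, the software's total was 446 and 27.2 units in the 2 replicates, where the own probes gave 21.3 and 27.2. The same held for miR-301b on all 5 arrays where it was detected: its total contained that of miR-301a to within 0.00091 units. miR-130a and miR-301a showed no such excess. Totals above a microRNA's own detected probes were not particular to this family. They were found for 43 to 68 of the detected microRNAs on each array, for instance 59 of 174 in replicate 1 of untreated KO cells.

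The deposited log2 values of miR-130b ran from 4.76 to 9.28. They differ from the levels used here both in these sums and in not being scaled between arrays. With the authors' deposited log2 values in the same fit, miR-130b was at -0.60 at 12 h and -0.73 at 24 h in KO cells relative to untreated KO cells, not called, where the scaled probe intensities gave 1.12 and 1.07. The software's totals scaled by the 75th percentile gave 0.21 and 0.05, and the probe intensities without scaling 0.23 and 0.01, none of them called. With the software's probe totals of miR-130b alone, summed over both probes, the differences were 1.12 and 1.07. Where both of its probes were detected, these totals and the probe intensities stood in nearly the same proportion for miR-130a and miR-130b on an array. Scaling removes such a factor, so this is no separate check.

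**Figure D4:**
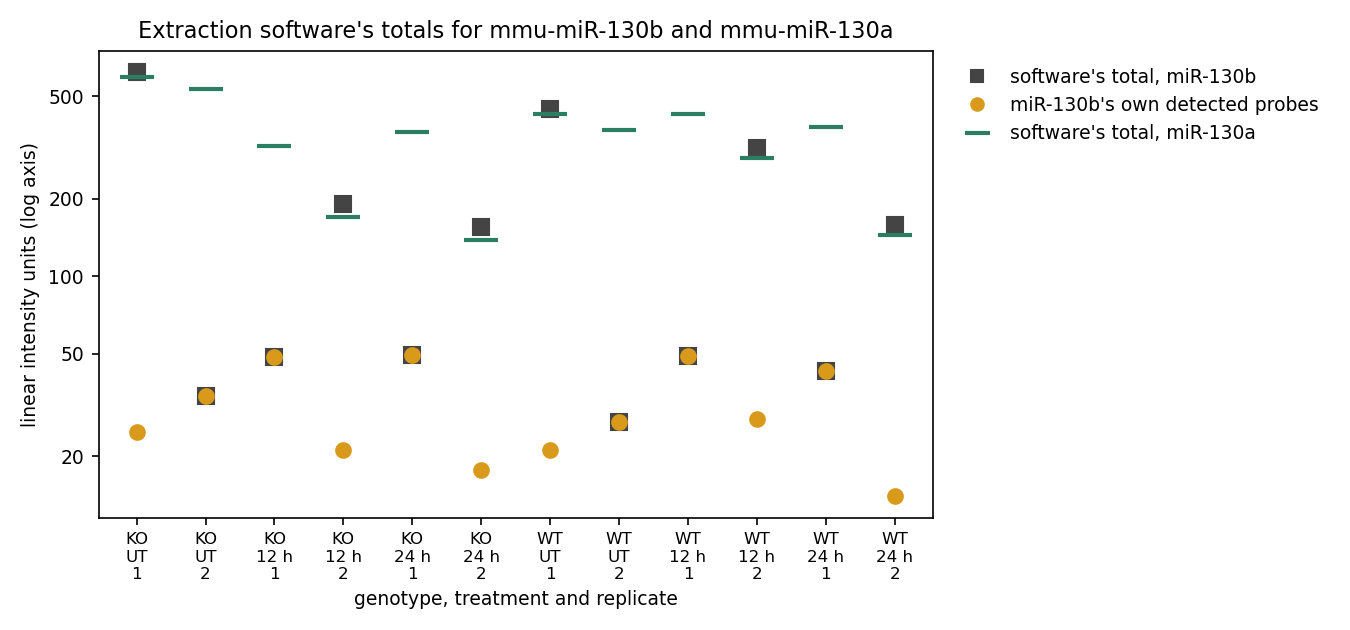
Extraction software's total for miR-130b (squares), the sum of its own detected probes (circles) and the software's total for miR-130a (dashes) on each of 12 arrays, in linear intensity units on a log axis. On 6 arrays the square lies just above the dash, at 156 to 620 units, and on the other 6 it coincides with the circle.

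The calls depended on how the arrays were scaled. The difference of miR-130b in KO cells at 12 h was 0.87 with the percentile over all microRNAs, 0.70 after quantile normalization, 0.73 with normexp background correction and 0.23 without scaling, none of them called. At 24 h these settings gave 0.81, 0.82, 0.75 and 0.01. For miR-301a between genotypes at 12 h they gave 0.31, 0.55, 0.55 and 0.01, also not called. None of these 3 differences turned round in the 4 settings, but without scaling miR-130b at 24 h and miR-301a at 12 h showed almost no difference. For miR-301a between genotypes at 24 h the settings gave 0.16, 0.26, 0.45 and 0.14, none called. For miR-130b between genotypes at 12 h the settings gave 0.14, 0.20, 0.47 and -0.16, none called, so that difference turned round without scaling.

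**Figure D5:**
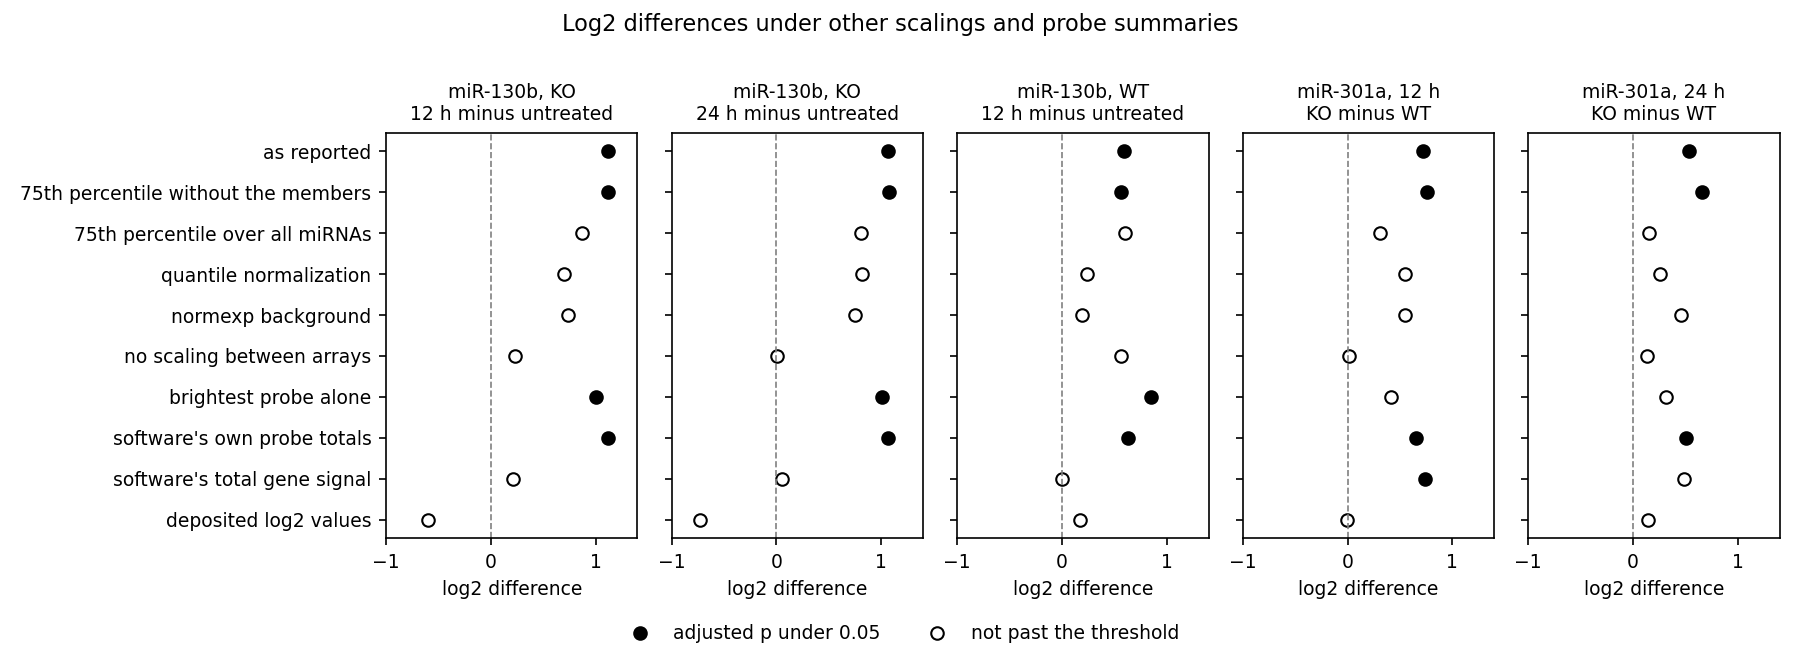
Log2 differences of miR-130b with tunicamycin and of miR-301a between genotypes under 10 ways of scaling the arrays or summing the probes; filled points have an adjusted p under 0.05. For miR-130b in KO cells at 12 h the points run from -0.60 with the deposited log2 values to 1.12 with the 75th percentile without the members.

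Markers of one other cell type moved with the treated KO group, in which miR-130b was highest. Of 8 epithelial microRNA markers, 4 to 5 were detected on the arrays of KO at 12 h and 3 to 5 at 24 h, and none on any other array. Their summed scaled level was 2.67 to 3.84 in KO at 12 h and 2.65 to 3.21 in KO at 24 h, against at most 0.0188 in untreated KO and 0.00949 in WT cells. miR-141, miR-200b and miR-200c were detected on all 4 treated KO arrays, and miR-203, miR-205 and miR-429 on none. Fibroblast markers summed to 46.3 to 53.7 in treated KO cells, 41.3 to 45.0 in untreated KO cells, 36.7 to 42.2 in treated WT cells and 41.6 to 48.8 in untreated WT cells. The part of these markers in the level of miR-130b was not tested.

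The microRNAs most alike to each member over the 12 arrays are given as a description, since arrays of a slide and run share technical deviations. Closest to miR-130b were miR-26b (Pearson r = 0.95), miR-320 (0.94) and miR-148a (0.91). Over the 8 treated arrays alone these were 0.97, 0.98 and 0.92. Closest to miR-130a were miR-299* (0.92), miR-26a (0.92) and miR-199b* (0.91), and closest to miR-301a were miR-34b-5p (0.88), miR-467b (0.87) and miR-99a (0.86). For miR-301b they were miR-30e* (0.77), miR-467b (0.73) and miR-24-1* (0.64). miR-301b was detected on only 5 arrays, miR-30e* on 6, and miR-467b and miR-24-1* on 8, so values at or near the floor enter these r. miR-320 was also detected on only 8 arrays and miR-99a on 10. Among the members, miR-130a and miR-130b had an r of -0.21 over 12 arrays and of 0.83 over the 8 treated arrays.

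2 other seeds are the family's own bases moved along by a step, and they are shown to place the family among them. Those of miR-148a and miR-152 start 1 base earlier and match bases 1 to 7 of miR-130a, and bases 2 to 7 of miR-19a match miR-130a from its position 3.
mmu-miR-148a: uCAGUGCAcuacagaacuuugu
mmu-miR-152: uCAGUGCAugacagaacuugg
mmu-miR-19a: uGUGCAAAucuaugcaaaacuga
mmu-miR-19b: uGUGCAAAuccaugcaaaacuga
Of the seed group of miR-148a, miR-148b and miR-152, 2 of 3 were tested. miR-148a, a broadly expressed microRNA, rose with tunicamycin in KO cells by 1.73 ± 0.17 at 12 h and in WT cells by 1.74 ± 0.17 (limma adjusted p = 0.000119 and 0.000152). miR-152 fell in WT cells, by a difference of -0.87 ± 0.28 at 12 h and -1.33 ± 0.28 at 24 h (limma adjusted p = 0.0416 and 0.00639), and its differences in KO cells, 0.23 and -0.10, were not called. miR-148a and miR-152 were both called higher in KO than in WT cells at 12 h and 24 h, where 38.1% and 34.7% of all tested were called. In untreated cells miR-148a was already higher in KO than in WT cells, by 1.12 ± 0.17 (limma adjusted p = 0.0053). The untreated difference of miR-152, 0.68 ± 0.28, was not called. miR-152 is also among the fibroblast markers.

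miR-19a and miR-19b, the growth-promoting members of the miR-17 cluster, rose in all 4 comparisons of tunicamycin with untreated cells, 2 of 2 in each. Of all 176 tested, 38 and 45 were called higher in KO cells at 12 h and 24 h, and 25 and 24 in WT cells. miR-19a was higher by 2.92 ± 0.19 in KO cells at 12 h and by 1.66 ± 0.19 in WT cells at 12 h. Without tunicamycin both were called lower in KO than in WT cells, by differences of -1.11 ± 0.19 and -0.72 ± 0.14, beside 17 lower and 3 higher of all 176 tested.

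Of 16 fibrosis-linked microRNAs, 14 were tested. In KO cells 6 rose and 1 fell at 12 h and 5 rose and 1 fell at 24 h, with medians of 0.40 and 0.35. Over all 176 tested, 38 were called higher and 7 lower at 12 h, and 45 and 9 at 24 h. In WT cells 1 rose and 3 fell at 12 h and 1 rose and 4 fell at 24 h, with medians of 0.00 at both times, beside 25 higher and 42 lower of all tested at 12 h and 24 and 52 at 24 h. miR-21, a fibroblast microRNA raised in fibrosis, was at 0.41 ± 0.15 in KO cells at 12 h and at -0.05 ± 0.15 in WT cells at 12 h, neither called. miR-29a, which represses collagen genes, rose by 0.54 ± 0.12 in KO cells at 12 h (limma adjusted p = 0.0126) and was at 0.17 ± 0.12 in WT cells at 12 h, not called. This list holds miR-200a, miR-200b and miR-200c, which are also among the epithelial markers above, and miR-26b, the microRNA most alike to miR-130b. miR-200b and miR-200c were detected only on the treated KO arrays, so they entered the test through the groups where they were high. Their rises, among the 6 and 5 counted in KO cells, were therefore favoured by the filter. In WT cells both lay at the floor with differences of 0.00, which set the WT medians of 0.00.

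Of 9 microRNAs of the miR-17 clusters, which drive proliferation, 7 were tested. All 7 rose in KO cells at 12 h and 24 h, with medians of 2.36 and 1.81, and in WT cells 7 rose at 12 h and 5 at 24 h, with medians of 1.42 and 1.24, beside the counts over all tested given for the fibrosis-linked list. miR-92a was higher by 1.65 ± 0.13 and miR-20a by 2.43 ± 0.11 in KO cells at 12 h. Between genotypes without tunicamycin, 5 of 7 were called lower in KO than in WT cells and none higher, beside 17 lower and 3 higher of all 176 tested. The medians over all 176 microRNAs in the tunicamycin comparisons, given above, lay between -0.05 and 0.25.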

How the data were processed

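The authors deposited scanner tables that hold each spot's intensity on a linear scale, background-subtracted, per the file headers, and extracted with version 10.7.1.1 of Agilent Feature Extraction, per the submitters' processing notes. They also deposited a table of log2 values that equal the log2 of the software's total per microRNA and are not scaled between arrays. The sources used here do not give the genome build of the array's annotation.

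Control spots and spots the software marked as outliers were left out, spots of a probe averaged, probes of a microRNA summed, and each array divided by its 75th percentile over the 93 microRNAs detected on all 12 arrays. Values were floored at 0.0191 of it and log2 taken. limma 3.58.1 in R 4.3.3 fitted 6 group means (6 residual and 1.65 prior degrees of freedom) and 11 contrasts, with Benjamini-Hochberg adjustment over the 176 mouse microRNAs that at least 1 group detected on both of its arrays and a threshold of 0.05. The fit was also run on simulated data in which arrays varied independently. That simulation cannot show how the fit behaves when arrays of a run deviate together, as they did here. Precision is limited by 2 arrays a group.

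Members and lists were chosen with earlier results of these data known. All members are named; otherwise the 3 microRNAs with the highest Pearson r to a member and up to 3 members of a list by mean level. Within a slide, a replicate number stands for a run, per the raw file names in the labels. Departures from the group mean correlated between same-numbered arrays at 0.48 between untreated and at 0.76 to 0.91 between treated groups, and at -0.38 to -0.05 between slides. Muscle and pluripotent markers were detected at 0 to 1 of 4 and 0 to 1 of 6 per array.

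Alternatives covered scaling, background, probe summary, floor, filters, the run and replicate as blocks, and each array left out. Promoters were not used here.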

Additional observations from a re-analysis of the deposited data

Results flagged for a closer look

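The opposite strand of the miR-130b hairpin, miR-130b*, stood out on 1 array, outside the comparisons. Its summed probe intensity was 60.9 units in replicate 1 of untreated KO cells, where the software called it detected, against -5.42 to 6.62 units on the other 11 arrays, where it was not detected. All 4 of its probes were brighter on that array, at 8.66 to 20.5 units, than in replicate 2 of the same group, at -3.18 to 0.954. On that array the software's total for miR-130b*, 627 units, contained that of miR-130b to within 0.00035 units, and its own detected probes gave 6.81.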

How the results depend on the processing

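The number of members called (of 4) moved with these settings. With the percentile over all microRNAs, no scaling, or normexp without spots of outlier background (the last chosen after seeing the data), it was 0 in KO at 12 h and 24 h, in WT at 12 h and in KO against WT at 12 h and 24 h, and with quantile normalization 0 in WT at 12 h and in KO against WT at both times. Quantile normalization left 1 call in KO at 12 h and at 24 h, but it was miR-130a, lower, in place of miR-130b. With the authors' deposited log2 values and with the software's total it was 0 in the same comparisons, except 1 in KO against WT at 12 h for the total. Restricting the fit to the groups in the contrast gave 0 in KO at 24 h and in KO against WT at 24 h. With all mouse microRNAs it was 0 in WT at 12 h and 1 in KO against WT at 12 h, and without the 3 arrays of low signal (chosen after seeing the data) 1 in KO against WT at both times. The brightest probe alone gave 1 in WT at 24 h, 0 in KO against WT at 12 h and 1 at 24 h. A lower floor gave 2 in WT at 12 h, 1 in WT at 24 h, 3 in KO against WT at 24 h and 1 for the 24 h response difference. The calls gained with it were of miR-301b, which entered the test only through untreated WT cells. A higher floor, and only microRNAs detected on all arrays, each gave 1 in WT at 24 h and 1 in untreated KO against WT, and a variance trend 1 in untreated KO against WT. The software's own probe totals gave 1 in WT at 24 h, and the percentile without the members 1 for the 24 h response difference (both chosen after seeing the data). With the replicate block the count was 2 in KO at 12 h, 1 in WT at 24 h, 1 in untreated KO against WT and 3 in KO against WT at 24 h; with the run as a block it was 1 in untreated KO against WT and 1 for the 24 h response difference.

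5 single differences turned round, none called afterwards: with the deposited log2 values, miR-130b in KO at 12 h (-0.60) and 24 h (-0.73) and in KO against WT at 12 h (-0.37), and miR-301a in KO against WT at 12 h (-0.0062); without scaling, miR-130b in KO against WT at 12 h (-0.16). The cause was not tested. The deposited values differ from the main ones both in the software's sums and in scaling, and miR-301a has no such sum on any array.

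Leaving out each array in turn gave 1 to 1 members called in KO at 12 h, 1 to 2 in KO at 24 h, 0 to 1 in WT at 12 h and at 24 h, 0 to 0 in untreated KO against WT, 1 to 2 in KO against WT at 12 h, 1 to 3 at 24 h, 0 to 0 and 0 to 1 for the response differences at 12 h and 24 h, and 0 to 0 in both comparisons of 24 h with 12 h; a lone array is then assumed to vary like the other groups. The planned normexp over all spots was not used, because on replicate 1 of WT at 12 h it left a median spot of 581 units, and 433 without control spots. miR-130b and miR-301b lie near the background, and 2 arrays a group on confounded slides limit every comparison.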
